A study of Mus musculus with 32 samples.

Results

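The genes Cebpa, Cebpb and Cebpd encode 3 CCAAT/enhancer binding proteins of the liver, and their surroundings were examined here in chromatin of mice with and without glucocorticoid. The loci are 3 windows of the mouse genome (build mm9): chr2:167500000-167700000 for Cebpb and the region after it, chr7:35850000-36000000 for Cebpa and chr16:15800000-15980000 for Cebpd. An interval belonged to a locus when its centre lay in the window. Of 180039 intervals in 5 deposited lists, 206 did so, with 123 at Cebpb, 63 at Cebpa and 20 at Cebpd. They comprised 29 of 11666 peaks of the glucocorticoid receptor (GR), 34 of 25392 C/EBPβ peaks after dexamethasone, and 22 of 22714 after vehicle. Of the sites hypersensitive to DNase I (DHS), they comprised 60 of 63473 in dexamethasone livers and 61 of 56794 in vehicle livers. The genes were chosen with earlier results of these lists in view, and the Cebpb window was selected on its number of GR peaks among other things. The counts of intervals are therefore descriptions without a test.

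The livers came from adrenalectomized male C57BL/6 mice that were 8 weeks old. Adrenalectomy removes the animals' own main source of glucocorticoid, and all mice used here had it. One group received dexamethasone, a synthetic GR ligand, as a cyclodextrin complex (1 mg/kg in 300 µl of saline) by intraperitoneal injection, and the other received cyclodextrin vehicle. The design text gives 1 h of treatment. DNase-seq, which finds open chromatin by its sensitivity to DNase I, and ChIP-seq for GR and C/EBPβ had 2 samples per treatment, 12 samples in all, and the labels do not say how many animals a sample holds. The series has 32 samples, and the adenovirus, RNA polymerase II and input samples were not analysed here. Each treatment had 1 list per assay with positions only, and no treatment is named for the GR list. Read depth is therefore unknown, no difference between the lists has a replicate check, and no test between the treatments was possible. The lists hold no RNA values, so the tissue could not be checked against marker genes.

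C/EBP proteins are leucine zipper transcription factors that bind DNA as dimers. C/EBPα is a main regulator of hepatocyte differentiation and metabolism, C/EBPβ acts in metabolic and acute-phase responses, and C/EBPδ is known as an inducible member in inflammation. GR is a nuclear receptor that moves to chromatin when it binds hormone. The C/EBPβ peaks described here thus mark a product of one of the family's genes at the loci of all 3.

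The sequence just before the transcription start is shown for the genes that the RefSeq promoter table held, because it is the regulatory DNA nearest to each gene body. The table listed 2 of the 3 genes, Cebpb (chr2:167688665-167688914, plus strand) and Cebpa (chr7:35119043-35119292, plus strand). These positions are in GRCm38.p6 and cannot be set against the mm9 positions of the intervals. Each line gives the 250 bases before the start, with motif matches in capitals.
Cebpb: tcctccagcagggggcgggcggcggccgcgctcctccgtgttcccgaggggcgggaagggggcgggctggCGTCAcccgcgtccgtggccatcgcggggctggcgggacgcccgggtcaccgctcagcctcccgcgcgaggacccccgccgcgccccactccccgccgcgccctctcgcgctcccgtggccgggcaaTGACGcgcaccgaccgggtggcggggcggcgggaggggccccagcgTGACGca
Cebpa: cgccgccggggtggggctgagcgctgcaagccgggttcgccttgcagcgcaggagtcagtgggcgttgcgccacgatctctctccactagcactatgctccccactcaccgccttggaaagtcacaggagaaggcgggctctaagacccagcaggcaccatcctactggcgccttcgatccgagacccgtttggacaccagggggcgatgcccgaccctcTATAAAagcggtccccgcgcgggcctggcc
The capitals in Cebpb mark TGACG, the core of the binding site of CREB-type factors, on either strand. It matched 3 times, and 0.688% of 32851 promoters of the same length held at least 3 matches, against 17.8% with any. The cut of 3 is this promoter's own count, and the promoters were not matched for their share of G and C. The capitals in Cebpa mark a TATA box, TATAAA, whose first letter lies 30 bases before the start. Anywhere in the 250 bases and on either strand, 12.4% of promoters held that motif. On the gene's own strand, 45 to 15 bases before the start, 349 of 16560 promoters of plus-strand genes held it. For minus-strand genes it was 353 of 16291. Neither sequence held a match to the C/EBP motifs TTGCGCAA (0.164% of promoters) and TTGCNNAA (9.56%, which includes each TTGCGCAA), to the core ACANNNTGT of the GR element (5.84%) or its full palindrome (0.00913%), or to TGACGTCA (1.55%, which includes TGACG). Both strands were searched. The share of G and C was 81.6% in Cebpb and 66.4% in Cebpa, against a median of 52.4% over all promoters. In RefSeq's GRCm38.p6 order, the protein-coding neighbours are Tmem189 and Ptpn1 for Cebpb, Gm45095 and Slc7a10 for Cebpa, with Cebpg, another family member, next to Gm45095, and Mzt2 and Spidr for Cebpd. No mm9 annotation was used here, so intervals are given by position and not as promoter, exon or intron.

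Cebpb had by far the most GR peaks of the 3 loci. Its 200 kb window held 22 GR peaks, the Cebpa window of 150 kb held 5 and the Cebpd window of 180 kb held 2. When the genome was tiled in windows of 200 kb, 4194 windows held any GR peak, their median was 2 and the highest count was 21. Of the 4714 tiled windows of the Cebpa width that held any GR peak, 650 (13.8%) held at least 5. Of the 4400 of the Cebpd width with any, 2504 (56.9%) held at least 2. Windows without a GR peak are not in these numbers, so the shares of all windows are lower. The Cebpb window was chosen in part for this density, and the tiles do not share its borders.

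Open chromatin was dense at both Cebpb and Cebpa. In vehicle livers Cebpb had 35 DHS, and 1 of the 9076 tiled windows with any vehicle DHS had at least as many. After dexamethasone it had 29, a count reached by 15 of the 9369 windows with any DHS of that list. Cebpa had 20 DHS after vehicle and 22 after dexamethasone, counts reached by 0.492% and 0.485% of the tiled windows that held any DHS of the same list. The Cebpd window had 6 and 9. The lower number of DHS at Cebpb after dexamethasone went with a larger covered length. Its DHS covered 24359 bp after vehicle and 28538 bp after dexamethasone, a ratio of 1.17, and their mean widths were 696 and 984.1 bp. The ratio of covered length was 1.08 at Cebpa, with mean widths of 737.8 and 726.2 bp. It was 1.57 at Cebpd, with mean widths of 707.5 and 741.6 bp. Over the whole lists it was 1.11, with mean widths of 650.4 and 648.8 bp.

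**Figure D1:**
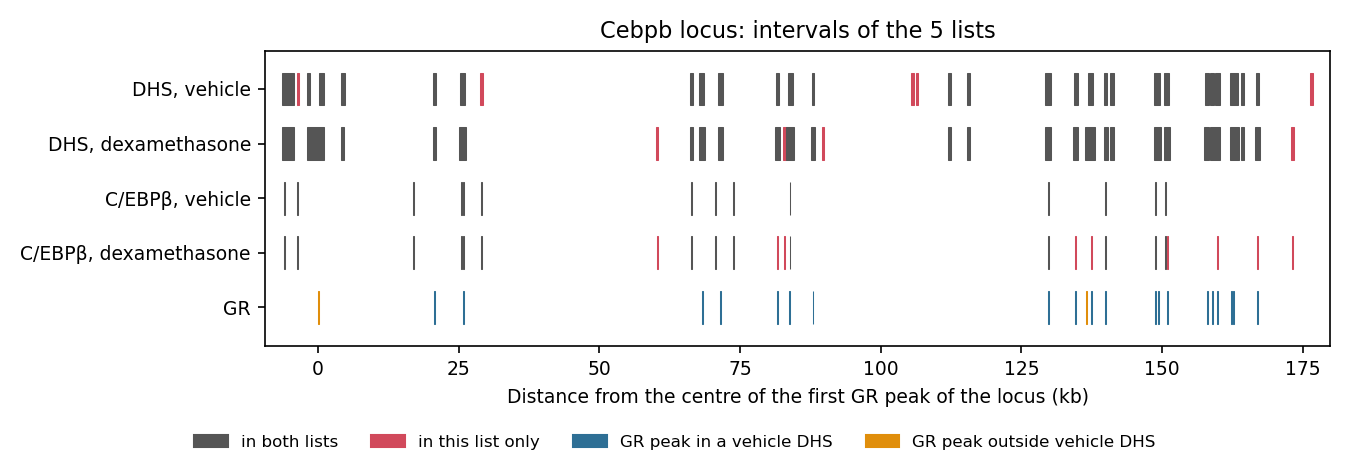
Intervals of the 5 lists at the Cebpb locus, by distance in kb from the centre of its first GR peak. Rectangles are drawn to scale with a thin outline; red intervals were in 1 list of their assay only, and the 2 orange GR peaks lay outside vehicle DHS, against 20 in blue inside them.

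Most GR peaks of Cebpb lay in chromatin that was open in vehicle livers, as did most in the series. Of the 22, 20 overlapped a vehicle DHS by at least 1 bp (90.9%, 95% Wilson interval 72.2 to 97.5), against 79.2% of all GR peaks, a share within that interval. The other 2 (9.09%) lay in a DHS found in both lists, beyond its vehicle interval, a class that held 1.98% of all GR peaks. No GR peak of Cebpb lay in a DHS of the dexamethasone list that shared no base with a vehicle DHS (dex-only DHS). A count of 0 among 22 allows a share of up to 13.6% (counting error only), and dex-only DHS held 15.6% of all GR peaks. Wilson intervals here likewise cover counting error only, and the peaks of a locus are neighbours and not independent.

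Cebpa had fewer GR peaks than Cebpb, and more of them lay in dex-only than in vehicle DHS. Of its 5 GR peaks, 3 lay in dex-only DHS (60%, 23.1 to 88.2), against 15.6% of all GR peaks, and 2 in vehicle DHS (40%, 11.8 to 76.9), against 79.2% of all. The first, chr7:35850059-35850209, lay in a dex-only DHS 8047 bp from the nearest vehicle DHS. The second, chr7:35906332-35906482, lay 664 bp from the nearest vehicle DHS, and the third, chr7:35933665-35933815, lay 1061 bp from it. All 3 were thus clear of vehicle DHS by more than their own width of 150 bp. The peaks in vehicle DHS were chr7:35935166-35935316, which lay 1501 bp from the third between centres, and chr7:35953124-35953274. The difference from Cebpb was not tested, since the loci were chosen with these results known.

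At Cebpd the 2 GR peaks fell into different classes. The peak chr16:15889849-15889999 lay in a vehicle DHS. The peak chr16:15948744-15948894 began 4 bp after the end of the vehicle DHS chr16:15948195-15948740 and lay inside the dexamethasone interval of the same DHS, which ended 358 bp further on. Its class thus rests on a few bases, and it counted as inside a vehicle DHS when a distance of up to 500 bp was allowed. No GR peak of the 3 loci lay outside all DHS, against 3.26% of all GR peaks. A count of 0 among 29 allows up to 10.3%.

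**Figure D2:**
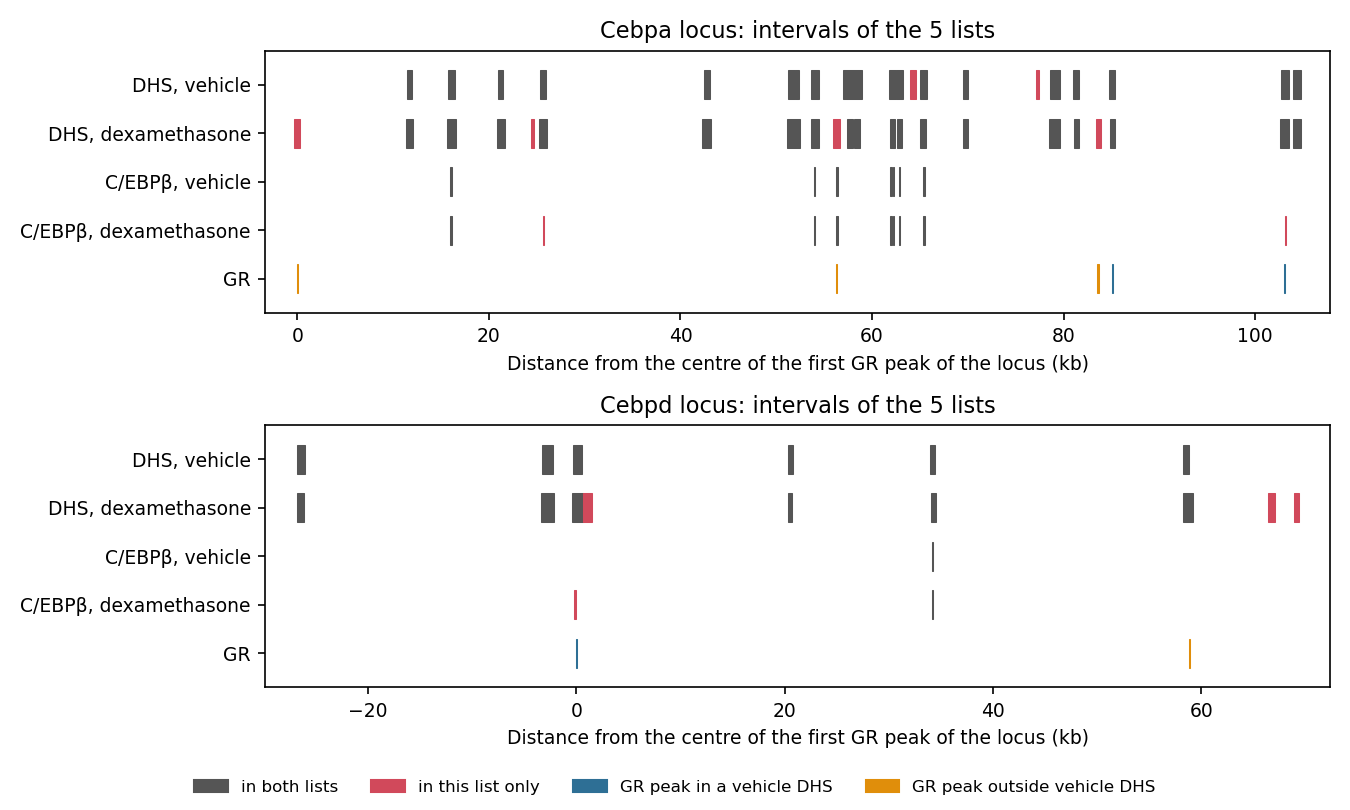
Intervals of the 5 lists at the Cebpa (top) and Cebpd (bottom) loci, by distance in kb from the centre of the first GR peak of each. Orange GR peaks lay outside vehicle DHS, 3 of 5 at Cebpa, each on a red dex-only DHS, and 1 of 2 at Cebpd.

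Few of these GR sites had C/EBPβ in the vehicle list. At Cebpb, 5 of 22 GR peaks overlapped a vehicle C/EBPβ peak (22.7%, 10.1 to 43.4), against 50.4% of all GR peaks. With the dexamethasone C/EBPβ list the number was 11 (50%, 30.7 to 69.3), against 62% of all. The other 11 GR peaks were on no C/EBPβ peak of either list (50%), against 37.6% of all. At Cebpa 1 of 5 GR peaks was on a vehicle C/EBPβ peak and 2 were on a dexamethasone one. At Cebpd the numbers were 0 and 1 of 2. Over the 3 loci, 6 of 29 GR peaks (20.7%) were on a vehicle C/EBPβ peak and 14 (48.3%) on a dexamethasone one, so 8 (27.6%) were on C/EBPβ in the dexamethasone list only, against 11.9% of all GR peaks.

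**Figure D3:**
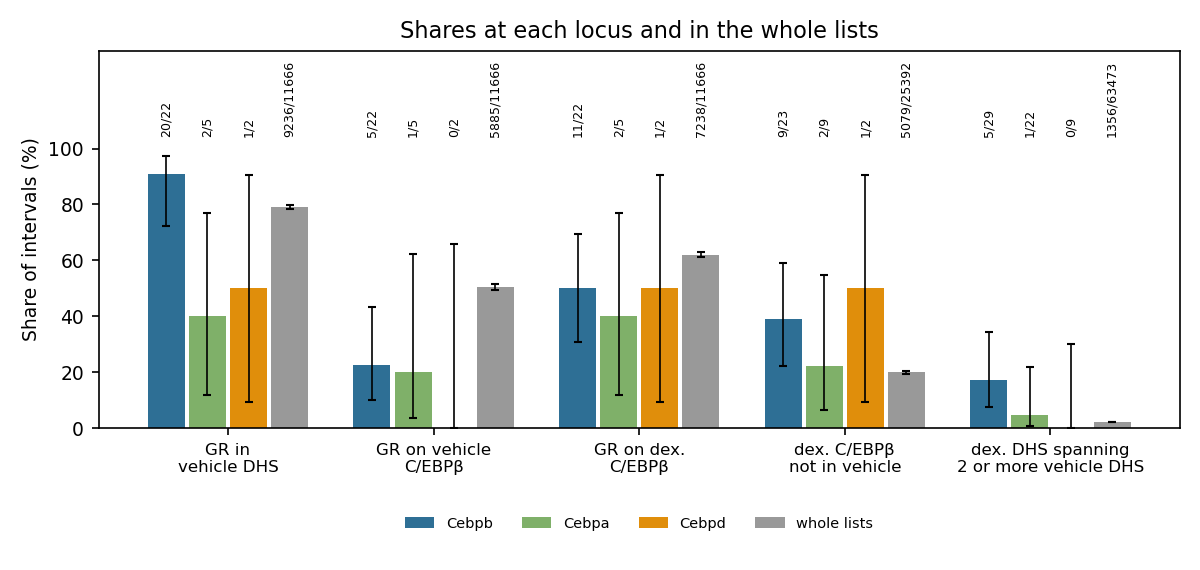
Share of intervals in percent at each locus and in the whole lists, with 95% Wilson intervals as error bars and counts above the bars. At Cebpb the share of GR peaks on vehicle C/EBPβ (22.7%) lies below that of the whole list (50.4%), and the share of dexamethasone C/EBPβ peaks not in the vehicle list (39.1%) lies above it (20%).

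C/EBPβ peaks differed between the lists at all 3 loci in 1 direction only. The dexamethasone list had 23 peaks at Cebpb, of which 9 were absent from the vehicle list (39.1%, 22.2 to 59.2), against 20% of the whole list. At Cebpa 2 of 9 were absent from the vehicle list and at Cebpd 1 of 2. All 12 of these dexamethasone-only peaks were 150 bp wide. Some peaks found in both lists had that width too, and the others were wider, up to 177 bp. What this width means for the peak calls was not tested. All 22 vehicle peaks of the 3 loci were also in the dexamethasone list, while 10.6% of the whole vehicle list were not. A count of 0 among 22 allows up to 13.6%, so this share does not stand apart from that of the whole list.

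Most of these dexamethasone-only C/EBPβ peaks coincided with GR. At Cebpb 6 of 9 overlapped a GR peak, against 27.5% of all such peaks in the series. Among the Cebpb peaks found in both lists, 5 of 14 did. Over the 3 loci 8 of 12 dexamethasone-only peaks overlapped GR (66.7%, 39.1 to 86.2). Among peaks found in both lists it was 6 of 22 (27.3%, 13.2 to 48.2), against 28.9% of all. The Cebpb window was selected on its number of GR peaks, so nothing is read from these comparisons with the series. At the 6 Cebpb sites the centres of GR and C/EBPβ lay between 17 and 39 bp apart. The closest was the GR peak chr2:167686161-167686311, whose nearest vehicle C/EBPβ centre was 16381.5 bp away. Next came chr2:167679072-167679222 at 22 bp, with 9292.5 bp to the nearest vehicle centre. The peak chr2:167656605-167656755 was 30 bp from its dexamethasone C/EBPβ centre and 2525.5 bp from a vehicle one. These 3 sites thus had no vehicle C/EBPβ peak in the same DHS. The peaks chr2:167600893-167601043, chr2:167670179-167670329 and chr2:167653863-167654013 were 31, 38 and 39 bp from a dexamethasone centre. The first and the last of these also had no vehicle C/EBPβ peak in the same DHS. For chr2:167670179-167670329 a vehicle centre was only 399.5 bp away, in the same DHS.

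All 6 sites lay in vehicle DHS, so they were listed as open in vehicle livers while C/EBPβ was not listed there. The 3 dexamethasone-only C/EBPβ peaks of Cebpb without GR were chr2:167579528-167579678, chr2:167602103-167602253 and chr2:167692399-167692549. Each lay in a dex-only DHS, and their distances to the nearest vehicle DHS were 5636, 536 and 3010 bp. The dexamethasone-only C/EBPβ peaks of this locus were thus 6 with GR in DHS of both lists and 3 without GR in dex-only DHS. The share of them in a vehicle DHS was 66.7%, near the 67.5% of all such peaks in the series. Of the 3 dex-only DHS, chr2:167601865-167602510 ended just before the dexamethasone DHS chr2:167602514-167603802, which was in both lists and held GR. Its class thus depends on how nearby intervals were joined, which was not tested. At Cebpa, chr7:35953213-35953363 overlapped a GR peak in a vehicle DHS, with 89 bp between centres, and chr7:35875760-35875910 lay in a vehicle DHS without GR. At Cebpd, chr16:15889728-15889878 overlapped a GR peak with 121 bp between centres, the widest offset of the 8.

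**Figure D4:**
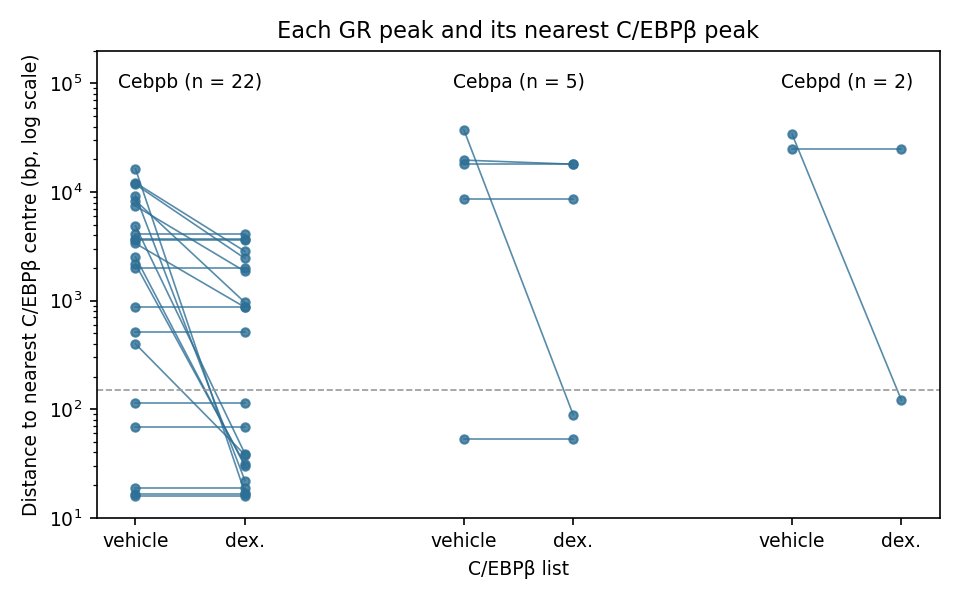
Distance in bp (log scale) from each GR peak centre to the nearest C/EBPβ centre of the vehicle and of the dexamethasone list, with a line joining the values of 1 GR peak, for 22, 5 and 2 peaks. Points under the dashed line at 150 bp belong to overlapping peaks; since no vehicle C/EBPβ peak of these windows was missing from the dexamethasone list, no line runs upward.

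At Cebpb 5 GR peaks were on C/EBPβ of both lists, and 3 of them lay within 20 bp of the C/EBPβ centre: chr2:167649009-167649159 at 16 bp, chr2:167659147-167659297 at 16.5 bp and chr2:167668096-167668246 at 19 bp. The remaining pair, chr2:167545102-167545252 and chr2:167602949-167603099, lay at 69 and 113 bp. The median distance of all 22 Cebpb GR centres was 2945 bp to a vehicle C/EBPβ centre and 312 bp to a dexamethasone one. The medians of the whole GR list were 136.75 and 45 bp. The Cebpb medians are thus the longer ones in both lists. The 11 GR peaks without C/EBPβ lay between 511 and 4087 bp from the nearest dexamethasone centre.

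GR and C/EBPβ peaks were also counted in the first and second 100 kb of the Cebpb window, a cut that was not planned beforehand. The window was selected on its number of GR peaks, so nothing is read from their split between the parts. The first 100 kb, from 167500000, held 5 GR peaks and 9 vehicle C/EBPβ peaks. The second 100 kb, from 167600000, held 17 GR peaks and 5 vehicle C/EBPβ peaks. Thus 9 of the 14 vehicle C/EBPβ peaks lay in the part with fewer GR peaks. Of the dexamethasone C/EBPβ peaks, 1 of 10 in the first part and 8 of 13 in the second were absent from the vehicle list. In the second part 4 GR peaks were on vehicle C/EBPβ and 10 on dexamethasone C/EBPβ, whereas in the first part it was 1 for either list. This second part also had the highest GR count among windows of 100 kb tiled over the genome.

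The Cebpb window was selected on its number of GR peaks, so their spacing and their share of its DHS are given as descriptions from which nothing is read. The median distance between neighbouring centres was 3145 bp, against 29.2 kb over the whole list, and the shortest was 398 bp, between chr2:167681542-167681692 and chr2:167681940-167682090. Stretches of 42.5 kb after the third peak and of 41.9 kb after the eighth held none. The last 14 peaks followed within the rest of the window. Of the 29 dexamethasone DHS of the locus, 18 held a GR peak (62.1%), against 16.7% of all dexamethasone DHS. With 2 GR peaks there were 4 of them (13.8%), against 1.03% of all with at least 2.

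Some neighbouring vehicle DHS of Cebpb appeared as a single DHS after dexamethasone. Of 29 dexamethasone DHS, 5 spanned 2 vehicle DHS (17.2%, 7.60 to 34.5), against 2.14% of all dexamethasone DHS. In the series the share was 4.08% where a GR peak was present and 1.75% where none was. GR was counted on the dexamethasone interval, which includes the gap between the vehicle DHS, so this contrast is partly built in. Of the 5, 4 held GR, against 31.9% of all such DHS in the series. At this locus, selected on its number of GR peaks, 62.1% of all dexamethasone DHS held GR, so nothing is read from the 4. The widest DHS of the locus was among the 5, chr2:167517265-167520237, 2972 bp wide. In the vehicle list it was represented by 2 intervals of 602 and 804 bp with 1652 bp between them. A GR peak, chr2:167519197-167519347, lay in that gap, 158 bp from the nearer vehicle interval, with no C/EBPβ peak of either list in the DHS. The other gaps were far shorter. They measured 184 bp in chr2:167677778-167679596, 105 bp in chr2:167681310-167682881, 48 bp in chr2:167544365-167545597 and 24 bp in chr2:167512938-167514934. The first 2 of these held 2 GR peaks each, the next held 1, and the last held none. How the peak caller joined nearby intervals is not given in the sources used here, and its part in these counts was not tested.

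At Cebpa the relation ran both ways. One dexamethasone DHS, chr7:35901284-35902602, spanned 2 vehicle DHS of 638 and 448 bp that were 8 bp apart. It was the widest DHS of the locus after dexamethasone. The widest vehicle DHS, chr7:35907146-35909111 (1965 bp), corresponded to 2 dexamethasone DHS of 613 and 691 bp, 61 bp apart. It was 1 of 20 vehicle DHS (5%), against 2.6% of the whole vehicle list. Neither held a GR or C/EBPβ peak. At Cebpd no DHS spanned several of the other list.

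DHS with a GR peak were mostly wider after dexamethasone. Over the 3 loci, 41 DHS matched 1 to 1 between the lists, and 25 of them were wider after dexamethasone (61%), against 51.1% of all matched DHS. GR peaks were counted on the dexamethasone interval, so a DHS that is wider there is more likely to hold one. At chr16:15948208-15949098 the GR peak lay outside the vehicle interval. The contrast by GR is therefore partly built in, at the loci and in the whole lists, and how far was not tested. Of the 18 with a GR peak, 15 were wider in the dexamethasone list (83.3%), against 70.8% of all matched DHS with GR in the series. Of the 23 without GR, 10 were wider (43.5%), against 46.7%. As log2 of the dexamethasone width over the vehicle width, the median was 0.18 with GR (0.05 to 0.50, a 95% interval from order statistics) and -0.04 without GR (-0.20 to 0.08). The whole lists had medians of 0.12 and -0.02. Pooled, the 3 loci thus showed the difference that the whole lists show, with Cebpb supplying 14 of the 18 sites with GR. Cebpa alone did not, with medians of -0.06 for 2 DHS with GR and 0.06 for 13 without. At Cebpd the medians were 0.57 for 2 DHS with GR and -0.06 for 4 without.

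The largest width ratio at Cebpb belonged to chr2:167606803-167607578. It measured 337 bp in the vehicle list and 775 bp after dexamethasone (log2 ratio 1.20), and it held a GR peak without C/EBPβ. The DHS chr2:167655499-167657383 came next, with 880 and 1884 bp (1.10). Its dexamethasone interval began 697 bp before the vehicle one, and 1 of its 2 GR peaks lay in that added stretch, 280 bp from the vehicle interval. The third, chr2:167600528-167601327, measured 560 and 799 bp (0.51). The most negative ratios belonged to GR-free DHS: -0.45 at chr2:167523400-167523921, -0.36 at chr2:167634689-167635164 and -0.18 at chr2:167585360-167585941. Of the 14 matched Cebpb DHS with GR, 12 were wider after dexamethasone, and of the 6 without GR 2 were.

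**Figure D5:**
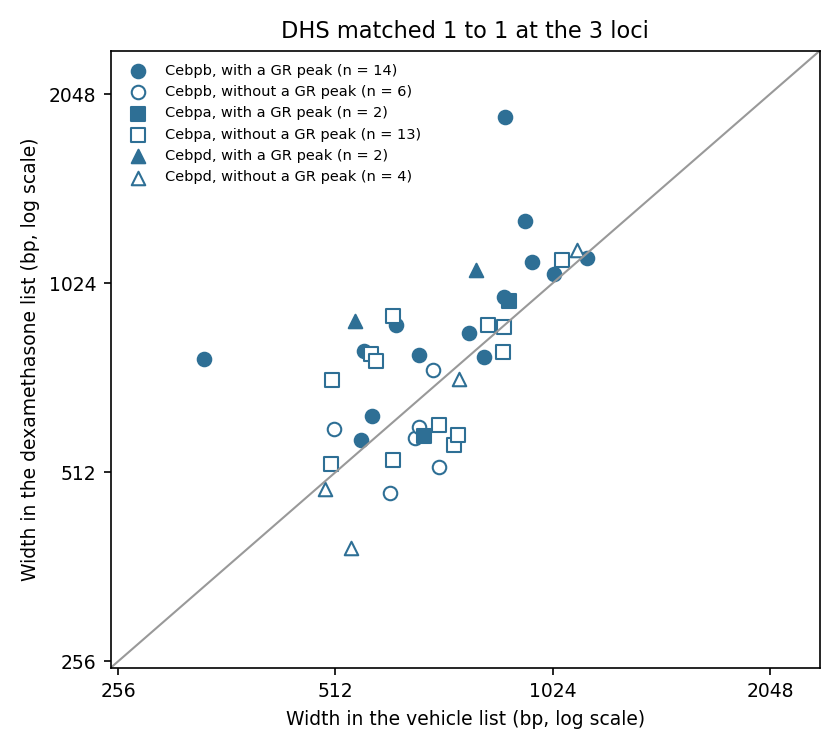
Width in bp (log scales) of each DHS matched 1 to 1 between the lists at the 3 loci, vehicle on the x axis and dexamethasone on the y axis. Filled symbols mark DHS with a GR peak in the dexamethasone interval, of which 15 of 18 lie above the line of equal width, against 10 of 23 open symbols without GR.

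At Cebpa the DHS with the largest ratios held no GR. They were chr7:35892379-35893287 (615 and 908 bp, log2 ratio 0.56), chr7:35861437-35862154 (507 and 717 bp, 0.50) and chr7:35870993-35871783 (574 and 790 bp, 0.46). The lowest were chr7:35911971-35912536 (-0.40), chr7:35912705-35913292 (-0.37) and chr7:35915179-35915787 (-0.23). The last 3 each held C/EBPβ peaks that were in both lists. At Cebpd the highest ratios were those of the DHS with GR, 0.71 at chr16:15948208-15949098 and 0.42 at chr16:15889472-15890546. The lowest was -0.47 at chr16:15910283-15910671, which held neither factor.

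DHS found in a single list were a minority at each locus, as in the whole lists. Cebpb had 4 dex-only DHS of 29 (13.8%) and 5 vehicle-only DHS of 35 (14.3%), against 23.8% and 14.9% of the whole lists. Cebpa had 4 of 22 (18.2%) and 2 of 20 (10%). Cebpd had 3 of 9 (33.3%) and 0 of 6. These shares were near the background, given the small numbers. A GR peak lay in 0 of 4 dex-only DHS at Cebpb, in 3 of 4 at Cebpa (30.1 to 95.4%) and in 0 of 3 at Cebpd, against 11.9% of all dex-only DHS. Counts of 0 among 4 and 3 allow up to 75% and 100%, so Cebpb and Cebpd do not stand apart from the whole list.

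At Cebpb, the dex-only DHS were chr2:167579321-167579744, chr2:167601865-167602510 and chr2:167692254-167692708, each with a C/EBPβ peak that only the dexamethasone list had, and chr2:167608838-167609226 with neither factor. At Cebpa they were chr7:35849796-35850424, chr7:35906035-35906743 and chr7:35933505-35934028, each with a GR peak, and chr7:35874519-35874803 with neither factor. The DHS at 35906035 was the only one of the 11 dex-only DHS at these loci with a vehicle C/EBPβ peak. That peak, chr7:35906381-35906539, was in both C/EBPβ lists, and its centre was 53 bp from the GR centre. At this site C/EBPβ was thus listed in vehicle livers without a vehicle DHS. At Cebpd the dex-only DHS were chr16:15890576-15891462, 152 bp after a vehicle DHS, chr16:15956331-15956998 and chr16:15958862-15959272, all with neither factor.

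Of the 7 vehicle-only DHS of the 3 loci, 2 held a vehicle C/EBPβ peak (28.6%, 8.22 to 64.1). The share of all vehicle-only DHS was 10.9%, which lies within that interval. Both were at Cebpb. The DHS chr2:167515457-167515914 and chr2:167547989-167548549 were absent from the dexamethasone list, while the C/EBPβ peaks in them, chr2:167515544-167515718 and chr2:167548176-167548333, were in both lists. The other 3, chr2:167624573-167625107, chr2:167625475-167625922 and chr2:167695559-167696082, held neither factor. Neither did those of Cebpa, chr7:35914080-35914702 and chr7:35927302-35927558. No vehicle-only DHS of the 3 loci held a GR peak. That is largely built in, because all 29 GR peaks lay in dexamethasone DHS.

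Most C/EBPβ peaks lay in open chromatin. In a vehicle DHS were 18 of the 22 vehicle peaks of the 3 loci (81.8%), against 82.9% of all, and in a dexamethasone DHS 29 of the 34 dexamethasone peaks (85.3%), against 85.8%. Peaks of both lists also occurred outside it. Of the 14 at Cebpb, 11 lay in a vehicle DHS (78.6%), against 84.5% of all peaks found in both lists. The 3 others, chr2:167536191-167536349, chr2:167589830-167589986 and chr2:167593042-167593201, lay in no DHS of either list and held no GR peak. At Cebpa 6 of 7 lay in a vehicle DHS, the exception being the peak at 35906381 described above. The cluster of C/EBPβ peaks there comprised chr7:35912026-35912199, chr7:35912285-35912435, chr7:35912948-35913098 and chr7:35915479-35915648, all in both lists, all in DHS of both lists and all without GR. At Cebpd the single vehicle C/EBPβ peak was chr16:15924056-15924213, in a DHS of both lists without GR.

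The widest DHS of each locus were mostly shared. After vehicle, Cebpb had chr2:167512917-167514155 (1238 bp, with C/EBPβ of both lists and no GR), chr2:167667852-167668993 (1141 bp, with 2 GR peaks and C/EBPβ) and chr2:167669548-167670575 (1027 bp). The widest at Cebpd was chr16:15886568-15887674, with 1106 bp after vehicle and 1158 bp after dexamethasone, and it held neither GR nor C/EBPβ. At Cebpa the DHS chr7:35928683-35929737 was 1054 bp wide after vehicle and 1114 bp after dexamethasone, again with neither factor. Wide DHS at these loci were thus not always those with GR.

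Some intervals lay close to a window border. At Cebpb the GR peaks just inside lay 19.3 and 13.8 kb from the borders, and those just outside 19.4 and 76.3 kb. At Cebpa the first GR peak lay 134 bp inside the left border, in a dex-only DHS whose centre was 110 bp inside, and the nearest outside were 405 and 84.9 kb away. With the windows narrowed by 1 kb on each side, an alternative chosen after seeing the data, 2 of 4 GR peaks of Cebpa lay in dex-only DHS. A DHS of both lists lay outside the right border by 499.5 bp after dexamethasone and 468.5 bp after vehicle. At Cebpd another GR peak, chr16:15985570-15985720, lay 5.64 kb beyond the right border and was not counted. With the windows widened by 50 kb, 1 of 3 GR peaks of Cebpd lay in a vehicle DHS.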

How the data were processed

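The authors' deposited values used here are positions (chromosome, start, end) in 5 interval lists, with no count, score or signal. The submitters' processing notes name CASAVA 1.8 and mm9. Aligner, peak caller, threshold and pooling of samples: for none of these does a source used here give an answer. All GR intervals were 150 bp wide, and each of the 20313 C/EBPβ peaks common to the lists was deposited with identical coordinates. Intervals were treated as half-open and printed as in the files. The number of unused columns with values of single samples was 0.

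Intervals overlapped when they shared at least 1 bp. DHS matched 1 to 1 when each overlapped the other and no further DHS. Shares have 95% Wilson intervals. The members, the lists and the rule for named intervals (those in 1 list only, all GR peaks at loci with up to 20, the widest DHS, the largest width ratios, and those next to a border) were chosen with earlier results of these data known. At Cebpb, which had 22 GR peaks, those that illustrate a group were named after their values were seen. Protein identity was not computed. The overlap functions were tested on simulated intervals and gave the same counts as bedtools 2.31.1. Software versions were Python 3.11.15 with pandas 2.3.3, numpy 2.4.6, scipy 1.17.1 and matplotlib 3.10.9.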

Additional observations from a re-analysis of the deposited data

How the results depend on the processing

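Of 261 values of 33 results (11 per locus) under 8 alternatives, 250 stayed within the 95% interval of the reported value. These intervals are wide, since a locus holds few intervals. Allowing a distance of 500 bp put 100% of the GR peaks of Cebpb and Cebpd in vehicle DHS, leaving 0% for those only in dexamethasone DHS. It gave 27.3% of dexamethasone DHS at Cebpa that spanned several vehicle DHS. Reducing all intervals to 300 bp gave 0% of such DHS at Cebpb and at Cebpa, which follows from the trimming. With it, 0% of Cebpb GR peaks were only in dexamethasone DHS, since 9.09% then lay in no DHS and 90.9% stayed in vehicle DHS. Of the vehicle DHS of Cebpb, 40% were then absent from the dexamethasone list. When 0.5 of the shorter interval had to be covered, or a centre had to lie inside the other interval, 0% of Cebpd GR peaks were on dexamethasone C/EBPβ. Leaving out DHS of over-represented exact widths, choosing members by any overlap, widening the windows by 50 kb on each side, and narrowing them by 1 kb, which was chosen after seeing the data, moved no value beyond its interval. No paired analysis was possible because each treatment has 1 list per assay with no replicate column, and no replicate could be left out for the same reason. The unknown depth limits every absence from a list.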
